A study of Mus musculus with 6 samples.

Results

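The regions described here were dense groups of open chromatin that lay away from the ends of genes and carried an ATAC-seq peak in each of 5 libraries of mouse heart cushion cells. Peaks of the 5 libraries were merged where they overlapped by at least 1 bp, which gave 48279 autosomal regions. Of these, 12139 held a peak in all 5 lists, and 5354 of the 12139 lay more than 1 kb from every end of a protein-coding gene. Neighbouring regions among the 5354 were joined where the gap between them lay within a fixed stitching limit (the widest gap joined was 12465 bp and the narrowest left unjoined 12584 bp), and groups of at least 3 regions were kept. This left 203 regions in 60 clusters, which is 3.79% of the shared regions away from gene ends and 0.420% of all regions. The presence of a peak in each list and the spacing of the regions chose the members, so both are given as a description. Requiring 1 list fewer loosens the rule, and without HG1 it gave 313 regions in 93 clusters.

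The study compared immortalised atrioventricular (AV) cushion mesenchymal cells grown for 48 h in DMEM with 5.5 mM glucose (normal glucose, NG) or 25 mM glucose (high glucose, HG), with 3 libraries each. All 6 libraries came from cells of the strain labelled H- 2Kb-tsA58 transgenic, at passage 6, with 54000 cells per library. That transgene encodes a temperature-sensitive large T antigen behind an H-2Kb promoter, so cells of both groups carry the gene of an immortalising oncoprotein. The presence of the protein was not tested. The labels do not say whether the line is 1 clone or whether replicates were separate cultures, and p-values therefore measure only the spread between these libraries. The deposited lists held 24263 (NG1), 66 (NG2), 40350 (NG3), 22156 (HG1), 25020 (HG2) and 22598 (HG3) peaks. NG2 fell below the minimum of 1000 peaks and was left out of the merging, and every normal-glucose value below rests on NG1 and NG3. The lists give no read counts, so depth is unknown.

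Open chromatin marks DNA that is free enough of nucleosomes for the Tn5 transposase to cut and insert adapters. Away from gene starts such sites are often enhancers, where transcription factors bind and act on a promoter at a distance, and enhancers that lie close together are often active in the same cells. AV cushion mesenchyme arises from the endocardium of the embryonic heart by an epithelial-to-mesenchymal transition, fills the cushions with matrix and contributes to valves and septa. Large stitched enhancers are usually defined by histone marks or cofactor signal. None of these was measured here, and the clusters are called only by their rule.

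The cell type label was set against marker genes by counting genes whose ends carried a region shared by all 5 lists. This was so for 35 of 66 cushion and valve genes (among them Snai1, Snai2, Sox9, Gata6 and Hand2) and not for the rest of that list. It was so for 19 of 44 mesenchymal and fibroblast genes (among them Vim, Acta2, Tagln and Fn1), but not for Pdgfra, Pdgfrb, Col1a1, Col1a2 or Col3a1. The count was 0 of 24 endothelial, 3 of 24 cardiomyocyte (Nppb, Atp2a2 and Myom1) and 1 of 23 blood cell genes (Spi1). Among epicardial and epithelial genes it was 4 of 19 (Wt1, Upk1b, Upk3b and Bnc2). The share over all 20661 autosomal protein-coding genes was 36.3%. An open gene end is not a measure of expression.

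The distance rule used only the outermost ends of each gene, so starts inside genes were checked against RefSeq start windows, which run from 250 bases before to 50 bases after each annotated start. Of the 203 regions, 20 (9.85%, 95% Wilson interval 6.47 to 14.7%) touched such a window, and 14 (6.90%, 4.15 to 11.2%) touched one of a protein-coding gene. By annotation, then, those 14 regions lie at internal starts of genes and cannot be called non-promoter regions. The same held for 12.1% of the 5151 shared regions away from gene ends outside clusters and for 72.9% of the 6785 shared regions at gene ends. Touched coding starts belonged to 13 genes in 12 clusters: Smarcal1, Speg, Midn, Cirbp, Hdac7, Ptpn1, Lmna, Rusc2, Prkag2, Gpr146, Bbc3, Adcy7 and Bcar1.

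The 6 windows below show these internal starts in clusters whose peaks are described further on. They were chosen after the values were seen. The sequences are RefSeq start windows on GRCm38.p6 (mm10 coordinates), written 5′ to 3′ on the strand of the gene. Hdac7 lies at chr15:97831446-97831745 on the minus strand, Lmna at chr3:88503303-88503602 on the minus strand and Bcar1 at chr8:111732087-111732386 on the minus strand. Adcy7 lies at chr8:88288816-88289115, Speg at chr1:75399835-75400134 and Ptpn1 at chr2:167932077-167932376, all on the plus strand. Capitals mark matches, on either strand, to 7 short motifs, and overlapping matches run together. The AP-1 motif was searched as TGANTCA and the cyclic AMP response element as TGACGTCA. The TEAD motif was searched as GGAATG and the RUNX motif as TGTGGT. The letters of the GC box were GGGCGG, and those of the E-box were CACGTG. The CCAAT box was searched under the letters of its name.
Hdac7: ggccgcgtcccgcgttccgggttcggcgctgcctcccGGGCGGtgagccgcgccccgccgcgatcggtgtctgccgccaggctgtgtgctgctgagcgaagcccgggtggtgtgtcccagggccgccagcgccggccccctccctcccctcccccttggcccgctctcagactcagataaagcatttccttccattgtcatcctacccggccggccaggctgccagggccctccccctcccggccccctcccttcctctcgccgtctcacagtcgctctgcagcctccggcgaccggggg
Lmna: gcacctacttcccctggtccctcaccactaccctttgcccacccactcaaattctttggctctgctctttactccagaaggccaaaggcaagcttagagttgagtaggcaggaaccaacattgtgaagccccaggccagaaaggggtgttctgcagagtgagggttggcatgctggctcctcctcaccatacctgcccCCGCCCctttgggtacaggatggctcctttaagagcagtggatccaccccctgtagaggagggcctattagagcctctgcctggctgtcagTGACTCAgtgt
Bcar1: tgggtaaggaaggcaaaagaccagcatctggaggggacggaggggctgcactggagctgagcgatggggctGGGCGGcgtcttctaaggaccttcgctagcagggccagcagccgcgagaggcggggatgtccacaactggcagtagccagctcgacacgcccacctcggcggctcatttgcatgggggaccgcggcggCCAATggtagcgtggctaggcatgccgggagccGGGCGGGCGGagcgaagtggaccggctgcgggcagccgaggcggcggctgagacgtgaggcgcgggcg
Adcy7: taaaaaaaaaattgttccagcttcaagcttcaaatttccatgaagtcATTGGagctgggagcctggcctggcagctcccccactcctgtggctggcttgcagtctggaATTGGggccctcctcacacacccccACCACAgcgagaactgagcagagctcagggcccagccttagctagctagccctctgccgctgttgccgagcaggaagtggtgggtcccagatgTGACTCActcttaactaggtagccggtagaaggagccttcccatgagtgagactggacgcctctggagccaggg
Speg: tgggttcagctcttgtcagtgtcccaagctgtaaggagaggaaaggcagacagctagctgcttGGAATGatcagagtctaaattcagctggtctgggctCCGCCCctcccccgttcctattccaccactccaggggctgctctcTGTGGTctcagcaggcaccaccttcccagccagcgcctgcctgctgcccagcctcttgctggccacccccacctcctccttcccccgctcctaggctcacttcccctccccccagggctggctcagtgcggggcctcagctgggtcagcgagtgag
Ptpn1: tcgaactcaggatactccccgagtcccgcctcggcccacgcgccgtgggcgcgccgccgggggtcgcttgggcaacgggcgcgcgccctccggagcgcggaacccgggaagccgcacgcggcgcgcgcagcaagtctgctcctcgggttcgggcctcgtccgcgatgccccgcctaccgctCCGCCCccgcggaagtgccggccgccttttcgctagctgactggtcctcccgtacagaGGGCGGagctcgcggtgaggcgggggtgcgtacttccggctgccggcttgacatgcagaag

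In each of these windows peaks of all 5 libraries overlapped the printed bases, over 88 bases at Hdac7, 135 at Lmna, 206 at Bcar1, 163 at Adcy7, 190 at Speg and 156 at Ptpn1. The median of the 5 summits lay 29 bases upstream of the start at Hdac7, 28 bases upstream at Speg, 35 at Ptpn1, 50 at Bcar1 and 95 at Adcy7, and 3 bases downstream at Lmna. The starts themselves lay inside the gene, between 1577 bp (Ptpn1) and 24788 bp (Speg) from its outermost start. Hdac7 encodes a class II histone deacetylase, Lmna the nuclear lamins A and C, Bcar1 the adhesion scaffold p130Cas, Adcy7 an adenylyl cyclase, Speg a muscle-type kinase and Ptpn1 the phosphatase PTP1B, which dephosphorylates the insulin receptor. Only the Lmna and Adcy7 windows among the 6 held the AP-1 letters, the Speg window alone held TEAD letters, and Bcar1 had 3 GC boxes.

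**Figure D1:**
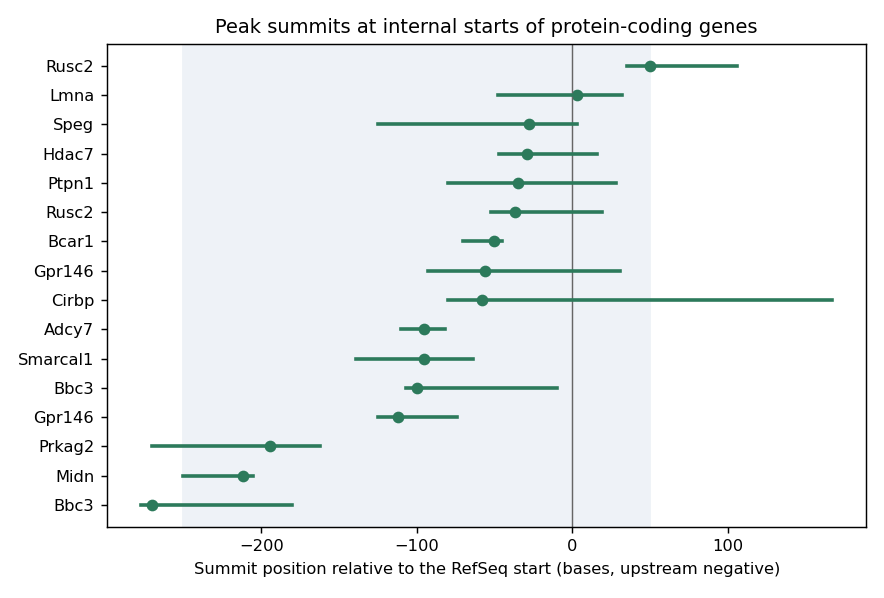
Position of peak summits relative to 16 RefSeq starts of protein-coding genes whose start windows hold bases covered in all 5 lists, in bases with upstream negative. Points are medians and lines the range over the peaks of 5 lists, the shaded band is the start window, and all medians but that of 1 Bbc3 start lie within or at the edge of the band, with Lmna, Speg and Hdac7 nearest the start.

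Over all 24 start windows touched by clustered regions, 66.7% held a GC box, against 69.3% of the 947 windows touched by other shared regions away from gene ends and 11276 of all 31365 autosomal windows. AP-1 letters stood in 4 of the 24 (16.7%), against 6.02% and 7.85% in the same 2 sets. CCAAT letters stood in 37.5%, 39.3% and 37.3%, and the letters of the cyclic AMP response element in 0 of the 24, 2.96% and 1.83%. The TEAD letters stood in 8.33%, 12.2% and 14.6%, the E-box in 3 of the 24, 8.98% and 7.14%, and the RUNX letters in 20.8%, 12.9% and 16.7%. Median GC content was 64.5%, 63% and 53%. At shared gene ends, 76.6% of 6484 windows held a GC box, at a median GC content of 64%. The part of base composition in these shares was not tested. Windows of the same gene can overlap, as at Rusc2 and Bbc3, so the 24 are not separate pieces of DNA. They include starts of lncRNAs and a Cirbp window with 0 bases covered in all 5 lists. Motif matches describe letters and are not binding sites. No genome sequence of mm10 was used, so members outside start windows are given by position only.

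The span of 2 clusters held a microRNA gene. The Mir7680 hairpin, chr16:21256013-21256066 on the minus strand, overlapped a member of the cluster 15514 bp from Ephb3, an ephrin receptor gene. That member, chr16:21255948-21256211, itself lay 32639 bp from Ephb3. Its rank percentiles were 43.0 and 75.1 in NG1 and NG3 and 67.4, 1.61 and 12.8 in HG1, HG2 and HG3. The value of 1.61 was the lowest of any member in any list. The mature 5p arm of Mir7680 is shown because the merged region covers the microRNA itself, with the seed (bases 2 to 8) in capitals.
mmu-miR-7680-5p: aUUCCAGUgaacaagcaguu
The second microRNA, Mir6944, lay 4795 bp from the nearest member of the cluster at Prr7 and Dbn1 and was not itself in a peak region of the cluster.

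Most clusters were small, and stitched groups were rare. Of the 5354 shared regions away from gene ends, 4373 stood alone and 778 formed 389 pairs. There were 46 clusters of 3 regions, 9 of 4, 1 of 5 and 4 of 6. The median span was 14202.5 bp, from 2168 to 26692 bp, and the median gap between neighbours was 5806 bp over 143 gaps. Members covered a median of 6.99% of the span, so most of a cluster was not in a shared peak. The widest gap inside a cluster of 3 or more was 12237 bp. The member nearest the gene-end limit lay 1042 bp from an end, against 1000 bp for the nearest region left out.

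A member was about as wide as any other distal region, with a median of 281 bp against 276 bp for shared regions away from gene ends outside clusters and 360 bp at gene ends. Summits of a member in the 5 libraries lay within a median of 68 bp of each other, against 69 bp and 58 bp in those sets. The spans also held 44 regions that were not shared by all lists, 19 of them found in 1 list and 7 in 4 lists, and 33 of the 60 spans held none. Chromosome 1 had the most clusters, 8 with 25 members, and chromosome 15 had 5 with 21 members. Chromosome 18 had 0 among its 129 shared regions away from gene ends.

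**Figure D2:**
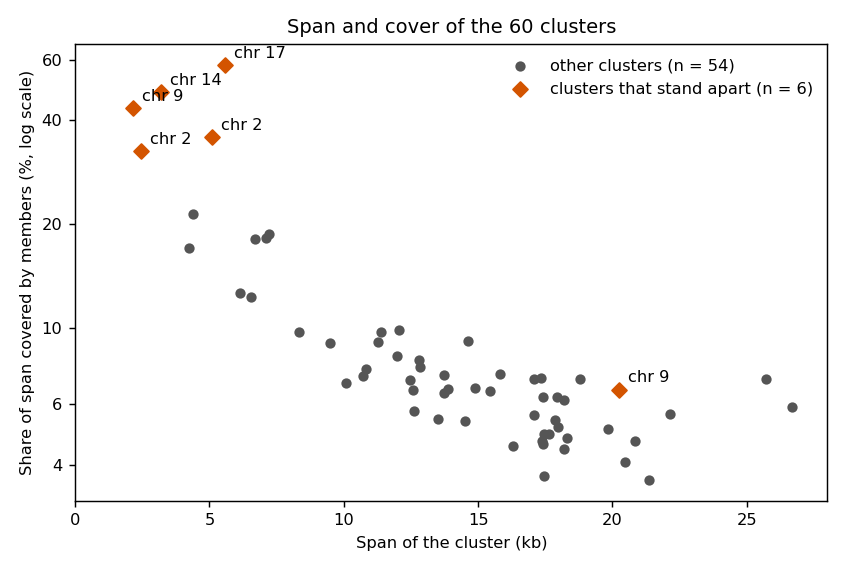
Span of each of the 60 clusters (kb) against the share of the span that its members cover (percent, log axis), 1 point per cluster. Of the 6 clusters that stand apart, drawn as diamonds with their chromosome, 5 cover between 32.6% and 58.0% of a short span, while the 54 other clusters reach at most 21.4%.

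A set of 6 clusters with 29 members stood apart from the rest. Where stated, results are given with and without them. They were picked after the values were seen, as the clusters whose members cover over 30% of their span, with the neighbour of one of them. They lay at chr2:22587365-22589827 (inside Myo3a, an unconventional myosin), chr2:98662237-98667324, chr9:3000035-3002202, chr9:3015884-3036124, chr14:19415712-19418893 and chr17:39843206-39848778. The chromosome 17 interval overlaps the RefSeq ribosomal RNA pseudogene Rn18s-rs5 and the lncRNA AY036118. Compact intervals of very high signal are often masked in ATAC-seq work. No mask or repeat annotation was used here. The cluster at chr9:3015884-3036124, the added neighbour, is not compact, with 6.63% of 20241 bp covered. Whether reads were placed uniquely in the 6 clusters was not tested. None of the 29 members touched a start window, and 3 of the 29 lay in a protein-coding gene, against 97 of the 174 members elsewhere (55.7%).

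Peak strength was compared within a library as a rank percentile, the share of the autosomal peaks of that list whose authors' −log10 p-value was at or below that of the strongest peak in the region. Members had median percentiles of 72.8 in NG1, 79.6 in NG3, 68.4 in HG1, 68.4 in HG2 and 65.7 in HG3. Shared regions away from gene ends outside clusters had 65.3, 79.0, 61.3, 64.9 and 59.4 in the same order, and shared regions at gene ends 78.5, 87.7, 78.3, 81.5 and 79.8. The clustered regions thus lay between the other distal regions and the gene ends in each library. Without the 6 clusters that stand apart, the members' medians were 69.2, 78.6, 63.4, 66.7 and 59.8, above the other distal regions in NG1, HG1, HG2 and HG3 and below them in NG3. The 29 members of the clusters that stand apart had 89.8, 83.0, 91.5, 86.9 and 87.9. A list of more peaks gives the same peak a higher percentile, so these medians show no change between libraries. No test of the differences between sets of regions was made, since regions are not replicates.

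Where libraries are set against each other below, each list was first reduced to its 21807 autosomal peaks of highest −log10 p, the length of the shortest list, and these are called lists of equal length. A peak that ranks lower than that is then absent. Percentiles are those of the deposited lists unless the equal-length lists are named.

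Neighbours in a cluster were not equally strong. The range of percentiles among the members of a cluster had a median between 27.8 points in NG3 and 37.4 points in HG3. The SD of the members was 17.9 to 25.1 points over the 5 libraries, and the SD of the cluster medians 11.8 to 18.3 points. At least 1 library placed 22 of the 203 members below percentile 10 of its list, whereas 99 members lay at or above percentile 50 in all 5 lists and 7 at or above 90, 3 of the 7 in the clusters that stand apart. Across members, Spearman's rho of the percentiles between 2 libraries was 0.565 to 0.714 over 10 pairs of libraries, against 0.526 to 0.601 for the other distal regions. Members had the lower rho for NG3 with HG1 (0.565 against 0.597) and NG3 with HG3 (0.572 against 0.601), and the higher in the other pairs. Among members, pairs within a condition gave 0.641 to 0.713 and pairs between conditions 0.565 to 0.714. The values were not computed without the clusters that stand apart. These correlations are across regions, which share libraries and genome features and are not independent.

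**Figure D3:**
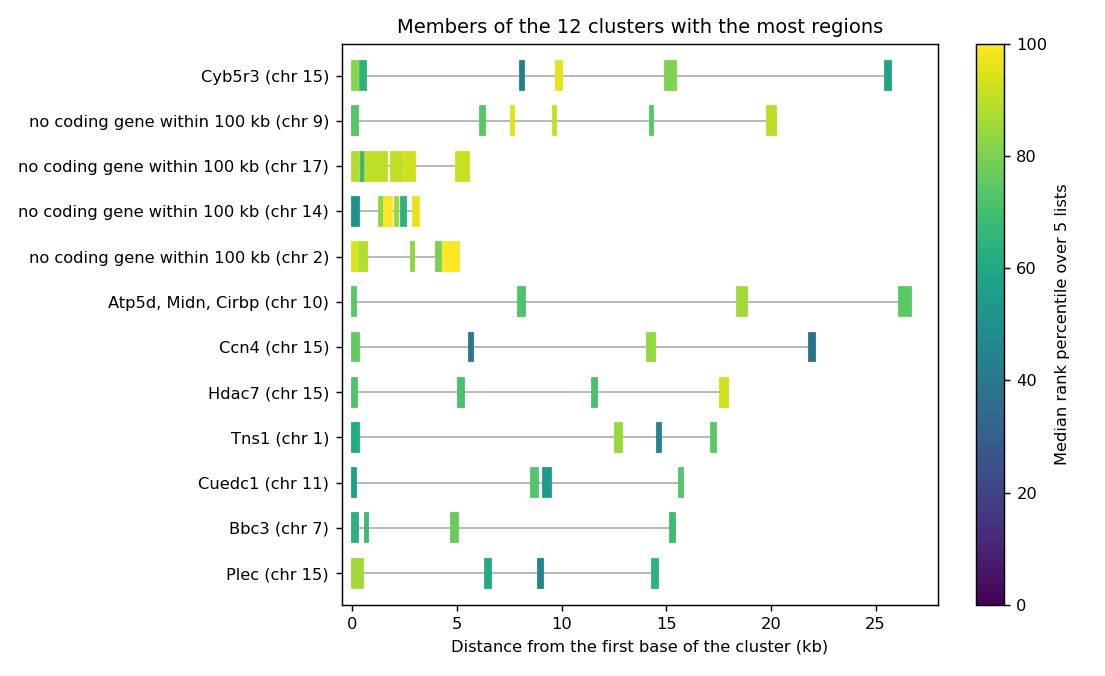
Members of the 12 clusters with the most regions, drawn to scale as boxes along the distance from the first base of the cluster (kb) and coloured by the median rank percentile over 5 lists. Clusters without a coding gene within 100 kb are compact on chromosomes 2, 14 and 17, while the Cyb5r3 and Midn clusters spread over 25718 and 26692 bp.

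The strongest member overall was chr2:98666554-98667324, which lay at percentile 99.98 or above in every library. It belongs to a cluster that stands apart, as does chr14:19417239-19417607, at 99.9 and 99.8 in NG1 and NG3 and 99.9, 99.6 and 99.5 in HG1, HG2 and HG3. Among the other 54 clusters, 4 members lay at percentile 90 or above in all 5 lists. These were chr5:146260965-146261342 inside Cdk8, the kinase of the Mediator complex, chr1:155083263-155083829 near Ier5, an immediate early gene, chr5:139380418-139380676 at an internal start of Gpr146, and chr13:48545658-48546186 near Ptpdc1, a phosphatase gene. The Cdk8 member lay at 98.5 and 99.8 in NG1 and NG3 and 98.4, 97.4 and 99.1 in HG1, HG2 and HG3. Its neighbours, chr5:146267108-146267358 and chr5:146273185-146273436, ranged from 13.8 to 72.6 and from 31.0 to 90.8, so 1 element of the cluster was high in every library and the other members were not.

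The Ier5 and Ptpdc1 clusters had the same unequal build. At Ier5, chr1:155083263-155083829 lay at 95.8 and 97.7 in NG1 and NG3 and 97.8, 98.2 and 98.8 in HG1, HG2 and HG3, and it touches the start window of the lncRNA Gm9530. Its neighbours ranged from 47.3 to 80.4 and from 25.0 to 70.2. At Ptpdc1, chr13:48545658-48546186 and chr13:48546518-48546841 lay at 97 and 94 in NG1 and NG3 and 96.3, 98.2 and 95.5 in HG1, HG2 and HG3 and at 88.3 and 97.7 in NG1 and NG3 and 93.6, 82.2 and 92.5 in HG1, HG2 and HG3. Its other neighbour, chr13:48552309-48552753, lay lower in every library, from 22.1 to 58.9. At Gpr146, a G protein-coupled receptor gene that overlaps 3110082I17Rik, chr5:139380418-139380676 lay at 94.7 and 96.9 in NG1 and NG3 and 96.8, 96.7 and 95.6 in HG1, HG2 and HG3.

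Genes held whole clusters in many cases. Of the 60 clusters, 26 (43.3%) lay inside 1 protein-coding gene, 8 overlapped one without lying inside it, and 26 overlapped none, 7 of these with no coding gene within 100 kb. Of the members, 100 (49.3%, Wilson interval 42.5 to 56.1%) lay in a gene, against 57.8% of the other distal regions. In all, 37 genes held a member. They were long, with a median length of 57776 bp against 17491 bp for all autosomal protein-coding genes, and longer genes have more room away from their ends. The outermost ends of 9 of the 37 (24.3%) carried a region shared by all 5 lists, against 36.3% of all genes. Regions on internal starts did not count here. Of the genes named above with a touched internal start, only Lmna was among the 9. The lower share therefore does not mean that these genes had fewer open starts.

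Cyb5r3 had the most members among genes. It encodes NADH-cytochrome b5 reductase, which supplies electrons for lipid desaturation and for reduction of methemoglobin. Its cluster at chr15:83156968-83182685 had 6 members, 5 of them inside the gene. The strongest, chr15:83166725-83167001, lay at 99 and 98.5 in NG1 and NG3 and 96.1, 91.9 and 88.2 in HG1, HG2 and HG3. A second member, chr15:83157336-83157612, lay at 87.9 and 83.8 in NG1 and NG3 and 53.3, 64.7 and 42.9 in HG1, HG2 and HG3. In lists of equal length both ranked higher in NG1 and NG3 than in any HG library. The weakest, chr15:83164966-83165167, lay at 69.8 and 76.1 in NG1 and NG3 and 35.5, 9.27 and 42.8 in HG1, HG2 and HG3. In lists of equal length its NG values also exceeded those of HG1 and HG3, and its HG2 peak is absent. The 3 other members of the cluster overlapped between the groups in lists of equal length.

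Cytoskeletal and nuclear envelope genes held several of the clusters of 4. Tns1 encodes tensin, which links integrins to actin, and its cluster at chr1:74036922-74054320 had members at 84.2 and 89.6 in NG1 and NG3 and 85.2, 84.6 and 35.9 in HG1, HG2 and HG3 (chr1:74049482-74049798) and at 86.3 and 90.9 in NG1 and NG3 and 48.5, 74.6 and 69 in HG1, HG2 and HG3 (chr1:74054052-74054320). Another Tns1 member, chr1:74051496-74051683, was low in both NG lists, with 14 and 8.40 in NG1 and NG3 and 57.2, 44.2 and 62.7 in HG1, HG2 and HG3. Plec encodes plectin, which cross-links intermediate filaments, and its strongest member, chr15:76189865-76190384, lay at 94.9 and 86 in NG1 and NG3 and 82.2, 84.8 and 88.4 in HG1, HG2 and HG3. The 3 other Plec members ranged from 27.4 to 83.2. At Lmna the member on the internal start, chr3:88503235-88503552, lay at 78.9 and 88.6 in NG1 and NG3 and 68.4, 60.9 and 57.8 in HG1, HG2 and HG3, and chr3:88492950-88493251 lay at 81 and 85.6 in NG1 and NG3 and 77.9, 87.1 and 71.6 in HG1, HG2 and HG3. The region next to the start member, chr3:88503606-88503741, ranked below it in NG1, NG3, HG1 and HG2 and level with it in HG3.

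Further adhesion and muscle-type genes had clusters of 3. At Bcar1 the member at the internal start, chr8:111732087-111732346, lay at 87.5 and 97.6 in NG1 and NG3 and 86.6, 83.3 and 95.6 in HG1, HG2 and HG3, above both of its neighbours in every library. At Speg, chr1:75392936-75393398 lay at 86.6 and 95.8 in NG1 and NG3 and 89.8, 90.6 and 88.3 in HG1, HG2 and HG3 and the member at the internal start, chr1:75399893-75400157, at 78.2 and 85.4 in NG1 and NG3 and 26.8, 47.3 and 64.4 in HG1, HG2 and HG3, a spread between libraries much wider than that of its neighbour. Myof encodes myoferlin, a membrane repair protein, and chr19:38015574-38015836 within it lay at 95.3 and 97.5 in NG1 and NG3 and 94, 81.1 and 93.3 in HG1, HG2 and HG3. That member touches the start window of the lncRNA Gm52396, whereas its neighbour chr19:38004821-38005148 lay at 51.3 and 43.3 in NG1 and NG3 and 48.8, 5.65 and 62 in HG1, HG2 and HG3.

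Of the genes of the cushion and of TGF-beta signalling, 2 of 66 (3.03%) and 1 of 36 (2.78%) had a member, against 0.310% of all coding genes. These shares were not tested. Smad3 encodes a receptor-activated transcription factor of the TGF-beta pathway and held 3 members in chr9:63706463-63726914. These lay at 73.3 and 88.1 in NG1 and NG3 and 16.8, 18.6 and 35.2 in HG1, HG2 and HG3 (chr9:63706463-63706707), at 62.4 and 69.1 in NG1 and NG3 and 62.6, 77.5 and 40.6 in HG1, HG2 and HG3 (chr9:63716154-63716428) and at 59.3 and 68.2 in NG1 and NG3 and 25, 67.9 and 55.8 in HG1, HG2 and HG3 (chr9:63726602-63726914). In lists of equal length the first ranked higher in both NG libraries than in any HG library, while HG2 ranked above NG1 for the others. The cluster 1338 bp from Fbln2, which encodes the cushion matrix protein fibulin-2, had its strongest member at chr6:91192828-91193169, at 91.3 and 91 in NG1 and NG3 and 65.8, 88.3 and 89.5 in HG1, HG2 and HG3, although that region is nearer to Hdac11. Col4a2, a basement membrane collagen gene, held 3 members, the strongest at chr8:11382350-11382787, with 64 and 84 in NG1 and NG3 and 79.3, 85.9 and 89.2 in HG1, HG2 and HG3.

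Clusters also lay at genes of gene regulation, cell death and signalling. At Hdac7, chr15:97837581-97837935 lay at 97.7 and 95 in NG1 and NG3 and 80.6, 84.8 and 92.6 in HG1, HG2 and HG3, and the member on the internal start shown above, chr15:97831428-97831709, varied from 29.2 in HG1 to 82.9 in HG3. Mnt encodes a MAX-binding repressor, and its 3 members ranged from 73.1 to 92.3 over all libraries, which made it the cluster with the highest weakest-library median (75.4) inside a gene other than Myo3a and Speg. At Midn, Cirbp and Atp5d, the longest cluster, chr10:80159761-80160254 lay at 85.4 and 94.9 in NG1 and NG3 and 82.5, 95.1 and 85.7 in HG1, HG2 and HG3. Midn encodes the nuclear protein midnolin and Cirbp a cold-inducible RNA-binding protein. The cluster at Bbc3, which encodes the BH3-only protein PUMA, had 4 members, 1 of them inside the gene, that ranged from 6.8 to 80.4. The low value was that of chr7:16294900-16295179 in HG1, a region whose nearest gene is Ccdc9 (8093 bp).

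Signalling genes included Adcy7, Rap1gap2 and Prkag2. Rap1gap2 encodes a GTPase-activating protein of Rap1, and chr11:74555924-74556340 lay at 90.7 and 96.2 in NG1 and NG3 and 85.3, 87.4 and 81 in HG1, HG2 and HG3. In the same gene chr11:74572739-74572995 lay at 75.9 and 89.2 in NG1 and NG3 and 27.3, 53.5 and 6.68 in HG1, HG2 and HG3, with the NG libraries high and HG1 and HG3 low. At Adcy7, chr8:88284765-88285030 lay at 91.7 and 91.6 in NG1 and NG3 and 79.8, 75.5 and 73.6 in HG1, HG2 and HG3 and the member on the internal start, chr8:88288886-88289134, at 66.5 and 91.4 in NG1 and NG3 and 71.7, 74.8 and 86.1 in HG1, HG2 and HG3. Prkag2 encodes a regulatory subunit of AMP-activated kinase, an energy sensor, and its members ranged from 39.2 to 90.2. Cuedc1, whose protein has a ubiquitin-binding CUE domain, held 4 members that ranged from 8.12 to 88.1. The cluster 7410 bp from Ccn4, a Wnt-induced matricellular gene, had its strongest member at chr15:66875891-66876311, with 84.5 and 92 in NG1 and NG3 and 83.7, 67.5 and 63.5 in HG1, HG2 and HG3.

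**Figure D4:**
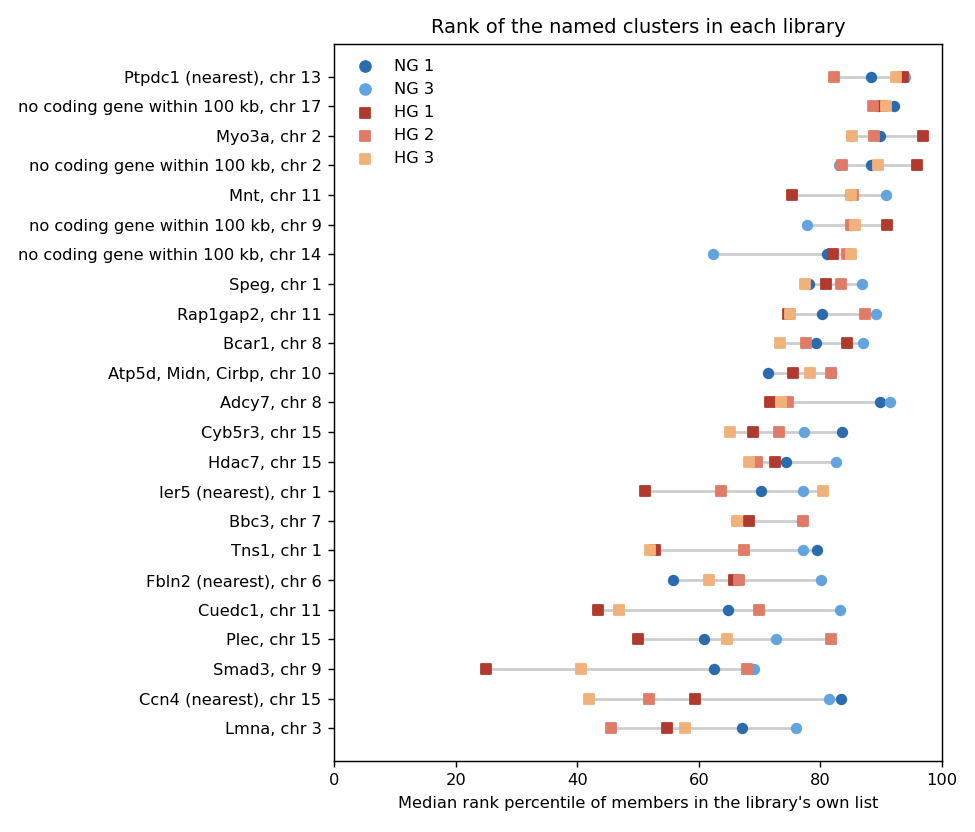
Median rank percentile of the members of 23 of the named clusters in each library's own list, with circles for normal glucose (NG) and squares for high glucose (HG). The Cdk8, Ptpn1 and Abtb2 clusters are among those not plotted. The chromosome 17, Ptpdc1, Mnt and Speg clusters lie at 75.4 or above in every library, and among the 23 clusters plotted Smad3 has the widest spread, from 25.0 in HG1 to 69.1 in NG3.

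A few further genes that the rule for names picked held 3 members each. The cluster medians in Smarcal1, which encodes an annealing helicase of stalled replication forks, were 34.8 and 64.2 in the NG lists and 47.7, 39.9 and 41.7 in the HG lists. Those in Abtb2 were 72.9 and 73.1 against 51.5, 28.5 and 28.7. Those in Dlgap1, a scaffold gene of the postsynaptic density, were 37.6 and 66.8 against 39.8, 73.1 and 60.8. Smarcal1 was thus in the lower part of the 60 clusters, whose medians over clusters were 70.9, 79.2, 63.4, 67.3 and 61.3 in NG1, NG3, HG1, HG2 and HG3.

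The gene lists held few genes with a member inside or, for a region outside genes, nearest within 100 kb. Over all 20661 autosomal protein-coding genes, 64 (0.310%) had such a member. In the lists these were 2 of 66 cushion and valve genes (Fbln2 and Smad3), 2 of 38 focal adhesion and actin genes (Tns1 and Bcar1), 1 of 24 AP-1 and immediate early genes (Ier5) and 1 of 36 TGF-beta and BMP genes (Smad3). The count was 0 of 44 mesenchymal and fibroblast genes, 0 of 24 Hippo, YAP and TEAD genes, 0 of 31 genes of glucose uptake, glycolysis and glucose response, 0 of 24 endothelial, 0 of 24 cardiomyocyte, 0 of 23 blood cell and 0 of 19 epicardial and epithelial genes. Median gene length ran from 5318 bp in the AP-1 and immediate early list to 117573.5 bp in the focal adhesion list, with 60473 bp in the cushion list and 17491 bp over all genes. The counts were not matched for length and were not tested. The cluster at chr1:186444770-186461076 had Tgfb2, a TGF-beta ligand gene, as its nearest gene, but lay 161711 bp from it and was not counted.

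The 2 glucose conditions were compared in lists of equal length. All 203 members kept a peak in HG1 and HG3, 200 did in NG1, 196 in HG2 and 187 in NG3. The median percentile of the peaks in members was 70.1 in NG1 and 65.9 in NG3, and 68.4 in HG1, 65.2 in HG2 and 63.6 in HG3. All peaks of a member entered, so some members counted more than once. With only the strongest peak of each member, the medians were 70.5 in NG1, 66.0 in NG3, 68.4 in HG1, 64.9 in HG2 and 65.0 in HG3. Members without a peak in a list did not enter its median. The NG3 median thus leaves out 16 members whose peaks ranked below the cut, while HG1 and HG3 keep all 203. The effect of this on the difference was not tested. The means of the medians over all peaks in members were 68.0 ± 2.98 (SD, n = 2) in normal and 65.7 ± 2.45 (SD, n = 3) in high glucose. The ranges of the groups overlapped, and the difference of −2.26 points gave p = 0.4 in a two-sided exact permutation test, of which the smallest possible p is 0.2. With 2 against 3 libraries the design cannot reach a p below that. Without the clusters that stand apart the difference was −3.89 points (exact permutation p = 0.2, the smallest possible). Peaks in all shared regions had medians of 68.8 and 71.6 in the NG lists and 69.5, 70.2 and 68.6 in the HG lists.

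**Figure D5:**
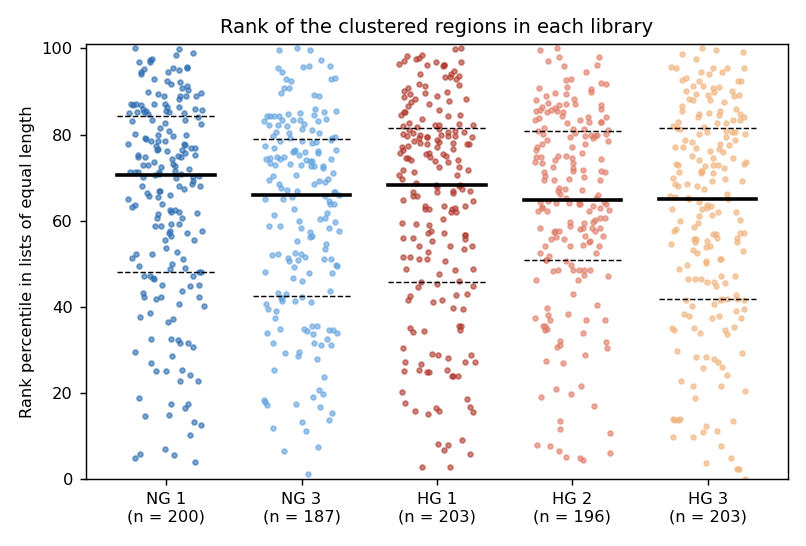
Rank percentile of each member's strongest peak in lists of equal length, 1 point per member and library, with n the members that kept a peak. Solid lines are medians and dashed lines quartiles, and the distributions of the 2 NG and 3 HG libraries overlap over nearly the whole range.

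Single members were compared in the same lists of equal length. Of the 180 members that kept a peak in all 5 lists, 21 (11.7%) ranked higher in every HG than in every NG library, against 12.2% of all 11155 shared regions. Another 21 (11.7%) ranked higher in every NG than in every HG library, against 11.4%. Both shares were near the background and show nothing particular to the clusters. Among the other distal regions the shares were 9.02% and 14.2%. Without the clusters that stand apart, 15 of the remaining 174 members ranked higher in every HG library and 21 in every NG library. Some of the 174 have no peak in a list of equal length, so these counts are not shares on the base used above. The other distal regions also had the larger share in the NG direction, so the larger NG count is not particular to the clusters.

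The clusters with most such members are described by their values. In lists of equal length, 2 of 3 members ranked higher in both NG libraries at Rap1gap2 and at Adcy7, 2 of 4 at Ccn4 and at Lmna and 2 of 6 at Cyb5r3. At Adcy7, chr8:88284765-88285030 lay at 90.9 and 84.7 in NG1 and NG3 and 79.8, 72.3 and 73 in HG1, HG2 and HG3 and chr8:88298042-88298260 at 88.8 and 76.8 in NG1 and NG3 and 62.8, 66.1 and 69.8 in HG1, HG2 and HG3. At Rap1gap2, chr11:74572739-74572995 lay at 73.5 and 80.4 in NG1 and NG3 and 27.3, 47.5 and 4.90 in HG1, HG2 and HG3, the widest separation of the groups at these 2 genes. At Lmna, chr3:88492465-88492732 lay at 51 and 39 in NG1 and NG3 and 23.9, 17 and 11 in HG1, HG2 and HG3. The Adcy7 member at the internal start overlapped between the groups, with 63.3 and 84.4 in NG1 and NG3 and 71.7, 71.5 and 85.9 in HG1, HG2 and HG3. In the other direction, 2 members of a cluster ranked higher in all HG than in both NG libraries at Myo3a (2 of 3) and at chr2:98662237-98667324 (2 of 5), both clusters that stand apart. The Myo3a member chr2:22589629-22589827 lay at 88.9 and 72.8 in NG1 and NG3 and 96.9, 92.6 and 91 in HG1, HG2 and HG3. In the second cluster, chr2:98665035-98665197 lay at 76.5 and 69.1 in NG1 and NG3 and 96.2, 81.5 and 80.2 in HG1, HG2 and HG3.

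At Ier5 and Gpr146 the strongest members also ranked higher in every HG library in lists of equal length. The Ier5 member lay at 95.4 and 95.9 in NG1 and NG3 and 97.8, 98 and 98.8 in HG1, HG2 and HG3 and the Gpr146 member at 94.1 and 94.4 in NG1 and NG3 and 96.8, 96.2 and 95.5 in HG1, HG2 and HG3. Percentiles this close to 100 leave little room for a difference.

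Regions with a peak in every list of 1 condition and none of the other were counted inside the spans. The spans hold a small part of all regions. Of 48279 merged regions 12139 were shared, and 44 of those not shared by all lists lay in a span. Low counts are therefore not particular to the regions of 1 condition. Of 82 regions found in all HG lists and no NG list, 0 lay in a cluster. Of 1798 found in NG1 and NG3 and no HG list, 4 did, at Prkag2 (chr5:25001609-25001767), near Piezo1 (chr8:122556140-122556376), near Ly86 (chr13:37442135-37442308) and at Prr7 (chr13:55472764-55472909). Piezo1 encodes a mechanically gated ion channel. NG3 had the longest list, and in lists of equal length the counts were 1 of 356 and 0 of 599, so neither direction held.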

How the data were processed

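ATAC-seq peak lists were analysed for 3 libraries in normal and 3 in high glucose. Per the submitters' processing notes, the build was mm10. Among the tools they name, without settings, are the peak caller MACS2 2.1.0, the aligner Bowtie 1.0.0, cutadapt 1.0, Picard 1.90 and SAMtools 0.1.19. There is 1 deposited list per library. The deposited lists give each peak's position, score, fold enrichment, −log10 p-value and −log10 q-value and the summit as the authors' caller wrote them, with a lowest −log10 q of 1.30. Read shifting for the transposase and the handling of duplicates are not given in the sources used here.

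Peaks on chromosomes 1 to 19 were merged (at least 1 bp), and regions shared by 5 lists, more than 1 kb from the ends of RefSeq GRCm38.p6 protein-coding genes, were stitched at up to 12.5 kb. Merging was checked against bedtools 2.31.1. Scripts ran in Python 3.11.15 with SciPy 1.17.1, pandas 2.3.3, matplotlib 3.10.9 and numpy 2.4.6, and were tested on simulated data. Intervals are 95% Wilson intervals, and conditions were compared over libraries by an exact permutation test. The rule and tests took depth as unknown, and longer lists raise every count of regions.

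The members, the 11 gene lists (335 genes) and the tests were chosen with earlier results of these data known. Named genes are those at the 12 clusters with the most regions, at the 10 with the highest weakest-library median, at the 5 with the most and the 5 with the highest share of members ranked higher in 1 condition, the 15 genes with the most members inside, listed genes with members, and microRNAs in spans. Genes at internal starts, at the strongest members and at regions of 1 condition were named after their values were seen.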

Additional observations from a re-analysis of the deposited data

Results flagged for a closer look

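The short list of NG2, which took no part in choosing the regions, held 52 autosomal peaks, and all 52 lay on regions shared by the 5 other lists. Of these peaks, 5 (9.62%) lay on clustered regions and touched 5 members. They were at Atp5d in the Midn and Cirbp cluster (chr10:80141423-80141525), near Ptpdc1 (chr13:48545868-48545970) and in clusters that stand apart on chromosome 14 (chr14:19417062-19417164 and chr14:19417254-19417373) and chromosome 2 (chr2:98666854-98667301). The share of clustered regions touched was 2.46%, against 0.233% of the other shared regions away from gene ends and 0.516% of those at gene ends, and 3 of the 5 touched members were in the clusters that stand apart. Without those clusters, 2 of 174 members (1.15%) were touched. No library serves as a control for this list.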

How the results depend on the processing

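The choice of clusters depends on the rule. Stitching at 5 kb gave 42 regions in 11 clusters, 27.3% of them inside 1 gene, stitching at 25 kb gave 480 in 138, a minimum of 4 regions gave 65 in 14, and a −log10 q of at least 5 gave 63 in 17. The rank difference between conditions turned positive when stitched at 5 kb (10.7 points), with at least 4 regions (1.59) and at the stricter q (5.53), each with an exact permutation p of 0.6 or 0.8. Its direction was kept under the 14 other alternatives tried. These reuse the same libraries and largely the same regions, so their number is not independent support. Among them is the rank in the deposited lists (−7.73 points), where the longer NG3 list raises percentiles. Leaving out each library in turn gave 207 to 313 regions, 61 to 93 clusters and differences of −4.38 to −1.02 points. It also gave 40 to 72 members higher in every HG library (background 17.8 to 29.4% of shared regions), 40 to 57 higher in every NG library (17.3 to 27.7%), and 0 to 2 HG-only and 6 to 19 NG-only regions in spans. The balance turned with the NG library left out. Without NG1, of 237 members 72 were higher in every HG library and 41 in NG3 (background 26.9% and 27.7%). Without NG3, of 207 members the counts were 40 and 57 (29.4% and 26.7%). Some of these members have no peak in a list of equal length, so the counts are not shares on the same base as the background. Fewer libraries to separate raise such counts by construction. Ranks in the deposited lists gave 11 of 203 members higher in every HG library (background 3.91%) and 45 of 203 higher in every NG library (background 21.7%). In lists of equal length there was 1 HG-only and 0 NG-only region in spans. Where not stated, the cause of a change was not tested.

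The labels give replicate numbers to both groups but do not say that a number marks a shared culture or day. With the replicate number as a block, over numbers 1 and 3, the difference was −2.00 points (−1.70 and −2.30 in the pairs; exact permutation p = 0.5, the smallest possible), and 2 pairs are too few to test whether the numbers pair the libraries.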
